A study of Mus musculus with 7 samples.

Results

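The module described here holds 40 nuclear genes that keep mitochondrial DNA, read it out, bring proteins into the organelle and fold or degrade them there. They were taken by gene name from the array annotation, with the brightest probe for each gene, and all 40 were measured among the 22839 genes tested in mouse hearts. By role they split into 10 genes of mitochondrial DNA maintenance and expression, 7 of the outer membrane translocase (TOM), 11 of the small TIM chaperones and inner membrane translocases (TIM), 3 matrix chaperones, and 9 proteases and prohibitins. The knockout samples, titled Mutant_175, Mutant_182, Mutant_187 and Mutant_188, came from transgenic hearts (labelled Tg) after tamoxifen. The samples Wild Type_181, Wild Type_183 and Wild Type_189 came from non-transgenic hearts (labelled NTg) after the same drug, and all 7 samples are from adult females. In the knockout, tamoxifen switched on a Cre recombinase (MHC Cre-ERT) under a myosin heavy chain promoter, which removed Brg1 from cardiomyocytes of mice that were already Brm null. Brg1 and Brm, encoded by Smarca4 and Smarca2, are the ATPases of SWI/SNF chromatin remodelling complexes. The labels do not say whether the wild type mice carried Brm, so a part of each difference that belongs to Brm, to the transgene or to Cre activity cannot be told apart from the rest. Each sample has its own number, but nothing else says that each is a separate animal, and the p-values therefore measure the spread between these samples.

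Mitochondrial DNA encodes a handful of respiratory chain subunits together with the RNAs needed to translate them, and every protein that copies, transcribes and stabilises it is made in the cytosol from nuclear genes. Such proteins enter through the TOM pore, are sorted by the TIM complexes and are pulled in and folded by matrix chaperones. Damaged proteins are removed by ATP-dependent proteases of the matrix and the inner membrane, where prohibitins form a scaffold. Cardiac muscle, which draws nearly all its energy from respiration, is among the tissues richest in this machinery.

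In the knockout hearts 25 of the 40 members fell and 0 rose, leaving 15 that did not pass an adjusted p of 0.05 (limma, 22839 genes, 4 Mutant and 3 Wild Type arrays). Over all genes tested, 25.8% fell and 16.4% rose by the same test. The median difference of the 40 members was -0.58 on the log2 scale (Mutant minus Wild Type, each array relative to the 75th percentile of its own signal), against -0.12 over all genes. Of the 40, 38 differences were negative, and the others were those of Timm17b at 0.10 and Tomm40 at 0.03, neither of which passed the test. In 31 members every Mutant array lay below every Wild Type array and in 0 every Mutant array lay above, where 31.6% and 19.6% of all genes did. A fall of at least 2-fold was measured in 8 members.

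**Figure D1:**
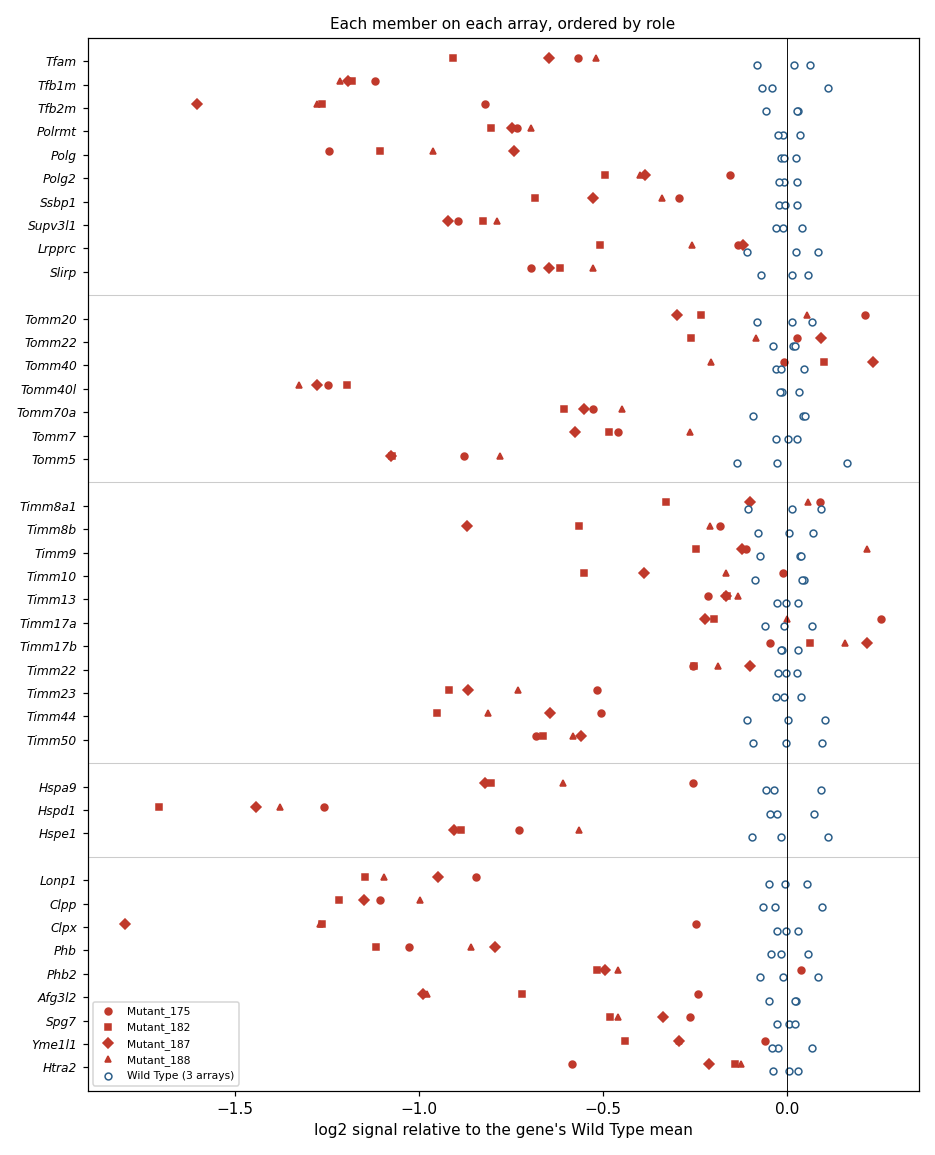
Signal of each of the 40 members on each array (log2, relative to the gene's mean over the 3 Wild Type arrays), with genes ordered by role. Red symbols are the 4 Mutant arrays and open blue circles the 3 Wild Type arrays. The Mutant symbols lie to the left of every Wild Type circle for 31 genes, most clearly for Hspd1, Tomm40l and Tfb1m, and mix with them for Tomm20, Tomm22 and Tomm40.

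The direction of many of these values is tied to the scaling. Measured against 7 spike-in RNA probes instead of the 75th percentile, the median of all genes moved by 0.56 to 0.44, 36.4% of genes rose and 7.4% fell. The members then had a median of -0.02 with 5 lower (Clpp, Hspd1, Tfb1m, Tfb2m and Tomm40l) and 4 higher (Timm8a1, Timm9, Timm17a and Timm17b). In all, 18 members turned from below to above 0. Of the 25 that fell under the main scaling, 20 stayed below 0, and Polg2, Ssbp1, Tomm70a, Tomm7 and Spg7 lay at 0.03 to 0.20. The distance between the members' median and the median of all genes was -0.45 under both scalings, since the spike-in scaling adds the same amount to every gene on an array. By role the medians relative to spike-in RNA were -0.14 for mitochondrial DNA maintenance and expression, 0.12 for TOM, 0.36 for TIM, -0.21 for matrix chaperones and -0.17 for proteases and prohibitins, so those of TOM and TIM turned sign. Cardiomyocyte markers then had 3 of 8 lower and fibroblast markers 6 of 6 higher. Directions given from here on are those relative to the 75th percentile.

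Smarca4, the targeted gene, had signals relative to the array's 75th percentile of 5.87, 10.3, 14.9 and 8.25 in Mutant_175, Mutant_182, Mutant_187 and Mutant_188, against 34.7 in Wild Type_181, 32.8 in Wild Type_183 and 34.2 in Wild Type_189. The values of both groups are given in this array order throughout. Smarca4 differed by -1.87 (SE 0.29, adjusted p = 0.0021), with no overlap, and its probe (chromosome 9, 21507751 to 21507810, build mm9) lies at an unstated distance from the deleted part. Smarca2, which encodes Brm, had 2.002, 2.21, 1.89 and 2.01 in Mutant hearts and 2.04, 1.82 and 1.90 in Wild Type hearts, a difference of 0.08 (adjusted p = 0.59). A probe outside a deleted part would not show the deletion, so these values do not check the Brm label.

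Cell type markers moved between the groups as well. Among cardiomyocyte markers 7 of 8 fell (median -0.79), and their summed relative signal was 1941 to 2555 in Mutant hearts and 3867 to 4270 in Wild Type hearts. All 6 fibroblast markers rose (median 1.20, sums of 521 to 653 in Mutant and 280 to 307 in Wild Type hearts), as did 4 of 6 macrophage markers (median 1.20, sums of 40.2 to 85.6 in Mutant and 34.3 to 36.8 in Wild Type hearts). The T cell receptor subunits Cd3d and Cd3e rose by 0.87 and 1.11 (adjusted p = 0.025 and 0.031). Of 5 endothelial markers (median -0.11), Vwf rose by 1.14 (other probes at -0.02 and 0.81, not called) and Tek fell by 0.38. Pecam1, Cdh5 and Kdr, at -0.08, -0.27 and -0.11, were not called. The endothelial sums were 44.0 to 63.4 in Mutant and 37.4 to 38.0 in Wild Type hearts. Vwf alone had a positive difference, so the higher sums in Mutant hearts rest on it and do not show a rise of the list. All of these markers were well above background on all 7 arrays. The labels name cardiomyocytes, while the source is heart and the RNA kit is one for tissue. In such bulk samples fewer cells of a type and less RNA per cell cannot be told apart, and the part of these marker shifts in the members' values was not tested.

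Genes of mitochondrial DNA maintenance and expression fell in 9 of 10 cases, with a median difference of -0.70. Tfb1m, which methylates the ribosomal RNA of the mitochondrial small subunit (probe on chromosome 17, 3519390 to 3519449, mm9), had relative signals of 1.73, 1.66, 1.65 and 1.62 in Mutant hearts, against 4.06, 3.66 and 3.59 in Wild Type hearts. The 4 Mutant arrays lay closer together than the 3 Wild Type arrays, and Tfb1m fell 2.26-fold (log2 -1.18, SE 0.10, adjusted p = 0.00017). Its paralogue Tfb2m, a factor that opens the promoter for the mitochondrial RNA polymerase (chromosome 1, 181458247 to 181458306), had 5.70, 4.19, 3.31 and 4.15 in Mutant hearts and 10.3, 10.3 and 9.67 in Wild Type hearts. Tfb2m fell 2.36-fold (-1.24, SE 0.18, adjusted p = 0.0017), with Mutant_175 nearest to Wild Type and Mutant_187 farthest. Polrmt, the mitochondrial RNA polymerase itself (chromosome 10, 79198897 to 79198956), had 3.45, 3.29, 3.42 and 3.55 in Mutant hearts against 5.89, 5.70 and 5.65 in Wild Type hearts, a narrow spread in both groups around a difference of -0.75 (SE 0.10, adjusted p = 0.00093).

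Supv3l1, a helicase that unwinds mitochondrial RNA for degradation, had relative signals of 7.97, 8.36, 7.83 and 8.58 in Mutant hearts, against 14.5, 15.2 and 14.7 in Wild Type hearts (-0.86, SE 0.10, adjusted p = 0.00056). Polg, the catalytic subunit of the mitochondrial DNA polymerase, had 2.26, 2.49, 3.20 and 2.75 in Mutant hearts and 5.29, 5.32 and 5.45 in Wild Type hearts (-1.01, SE 0.14, adjusted p = 0.0013). For both genes every Mutant array lay well below the lowest Wild Type array, and for Polg the farthest array was Mutant_175. Polg2, the accessory subunit that holds Polg on its template, fell by 0.36 (SE 0.12, adjusted p = 0.041), the smallest of the 9 calls in the group. This call held in 5 of 16 alternative settings, and a second Polg2 probe at -0.30 was not called. Tfam, which packages mitochondrial DNA and starts its transcription, fell by 0.66 (adjusted p = 0.0056), and Ssbp1, the single-stranded DNA binding protein of the replication fork, by 0.46 (adjusted p = 0.023), called in 8 of the 16 settings. Slirp, which with Lrpprc protects mitochondrial messenger RNAs, fell by 0.62 (adjusted p = 0.0027). Lrpprc had a difference of -0.25 (SE 0.13, adjusted p = 0.16), although its 4 Mutant values of 29.0 to 38.0 all lay below its 3 Wild Type values of 38.3 to 43.8.

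Promoters of these genes are shown because a pair of known control motifs of nuclear mitochondrial genes could be read in them: the core of the NRF1 site (GCGCANGCG) and the core of the ETS site bound by GABP (CCGGAAG), each searched on both strands. RefSeq promoter windows of build GRCm38.p6, from 250 bases before to 50 after the start, were at hand for 35 of the 40 members, 37 windows in all, and a member counts as holding a motif when any of its windows does. The NRF1 core was found in 10 of the 35, in 7 of the 21 that fell and 3 of the 14 that were not called, against 6.25% of 32851 promoters in the table. The ETS core was found in 16, in 11 of the 21 and 5 of the 14, against 8.86% of promoters. A match here is a run of letters and not a measured binding site. The window of Polrmt (chr10:79746532-79746831, minus strand) carries overlapping NRF1 cores and an ETS core, and that of Tfb2m (chr1:179546227-179546526, minus strand) a single NRF1 core, all in capitals.
Polrmt: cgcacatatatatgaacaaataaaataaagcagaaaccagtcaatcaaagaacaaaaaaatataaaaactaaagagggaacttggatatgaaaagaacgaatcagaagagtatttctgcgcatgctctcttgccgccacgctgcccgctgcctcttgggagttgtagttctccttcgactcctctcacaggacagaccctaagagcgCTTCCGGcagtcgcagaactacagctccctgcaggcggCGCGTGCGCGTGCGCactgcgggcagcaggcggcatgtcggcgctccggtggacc
Tfb2m: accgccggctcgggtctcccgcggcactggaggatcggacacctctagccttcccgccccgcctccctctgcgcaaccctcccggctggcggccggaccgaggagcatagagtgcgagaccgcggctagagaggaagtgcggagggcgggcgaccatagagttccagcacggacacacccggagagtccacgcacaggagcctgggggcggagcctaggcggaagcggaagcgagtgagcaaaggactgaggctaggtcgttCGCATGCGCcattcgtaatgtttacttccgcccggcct

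In the outer membrane translocase 4 of 7 genes fell, with a median of -0.45. Tomm40l, a paralogue of the pore subunit (chromosome 1, 173147948 to 173148007, mm9), had relative signals of 3.47, 3.59, 3.40 and 3.29 in Mutant hearts, against 8.41, 8.16 and 8.12 in Wild Type hearts. It fell 2.40-fold (-1.26, SE 0.10, adjusted p = 0.00011), had the smallest p of the 40 members and varied little within either group. Tomm5, a small subunit that helps to assemble the pore, had 52.2, 45.6, 45.5 and 55.9 in Mutant hearts and 107.4, 87.2 and 94.0 in Wild Type hearts (-0.95, SE 0.13, adjusted p = 0.0013). Tomm70a, the receptor for carrier proteins, had 4.12, 3.90, 4.05 and 4.35 in Mutant hearts and 6.11, 5.56 and 6.13 in Wild Type hearts (-0.53, SE 0.10, adjusted p = 0.0055). Neither of these overlapped between the groups. Tomm7, a small subunit that tunes the stability of the complex, had 70.1, 69.0, 64.7 and 80.3 in Mutant hearts and 96.6, 94.5 and 98.1 in Wild Type hearts (-0.45, SE 0.11, adjusted p = 0.017), again without overlap.

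The other 3 genes of the complex did not pass the test. Tomm22, the central receptor, had relative signals of 44.6, 36.5, 46.6 and 41.3 in Mutant hearts, against 42.6, 44.2 and 44.4 in Wild Type hearts (-0.06, SE 0.12, adjusted p = 0.73). The Mutant arrays lay on both sides of the Wild Type arrays. Tomm20, the presequence receptor, had a difference of -0.07 (SE 0.15, adjusted p = 0.75), and Tomm40, the pore itself (chromosome 7, 20286707 to 20286766, mm9), one of 0.03 (SE 0.13, adjusted p = 0.87). Tomm20 averaged 19.9 ± 3.35 in Mutant hearts (SD, n = 4) and 20.7 ± 1.09 in Wild Type hearts (SD, n = 3). Tomm40 averaged 18.7 ± 2.38 in Mutant hearts (SD, n = 4) and 18.2 ± 0.51 in Wild Type hearts (SD, n = 3). When the value of Tomm40 was taken as the mean over its 4 probes it became -0.46 (adjusted p = 0.021), since 1 of the 4, of the opposite orientation, fell by 2.01 while the rest lay between 0.03 and 0.06. The window of Tomm20 (chr8:126945872-126946171, GRCm38.p6, minus strand) is printed for contrast with those of Polrmt and Tfb2m, since it too carries an NRF1 core, beside the letters of a heat shock element core (TTCNNGAA), both in capitals.
Tomm20: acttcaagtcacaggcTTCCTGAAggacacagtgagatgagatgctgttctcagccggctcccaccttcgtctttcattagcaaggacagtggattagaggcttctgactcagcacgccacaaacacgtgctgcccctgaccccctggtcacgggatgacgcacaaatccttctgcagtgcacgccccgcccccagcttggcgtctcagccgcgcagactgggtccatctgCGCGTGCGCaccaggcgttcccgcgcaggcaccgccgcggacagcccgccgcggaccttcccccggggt

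Among the small TIM chaperones and inner membrane translocases 3 of 11 fell, a share near the 25.8% of all genes, with a median of -0.20, the closest of the 5 roles to the median of all genes. Timm50, the receptor that takes presequences over from TOM (chromosome 7, 29091465 to 29091522, mm9), had relative signals of 3.07, 3.11, 3.33 and 3.29 in Mutant hearts, against 4.61, 5.25 and 4.91 in Wild Type hearts (-0.62, SE 0.10, adjusted p = 0.0029). Timm23, the channel of the presequence route (chromosome 14, 32993435 to 32993494), had 53.2, 40.3, 41.8 and 45.9 in Mutant hearts and 75.7, 74.5 and 78.2 in Wild Type hearts (-0.76, SE 0.13, adjusted p = 0.0030). Timm44, which docks the import motor on the channel (chromosome 8, 4259739 to 4259798), had 20.4, 14.99, 18.5 and 16.5 in Mutant hearts and 29.0, 26.9 and 31.1 in Wild Type hearts (-0.73, SE 0.14, adjusted p = 0.0051). In all 3 the highest Mutant array stayed below the lowest Wild Type array. A second Timm23 probe gave 0.28 and was not called. Its relative signals of 0.022 to 0.054 lay near the lowest signals well above background, 0.024 to 0.038 across arrays.

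The channel partners Timm17a and Timm17b, encoded on chromosomes 1 and X, had differences of -0.04 and 0.10 (adjusted p = 0.84 and 0.50). Timm22, the channel of the carrier route, had 5.76, 5.77, 6.42 and 6.04 in Mutant hearts and 6.77, 7.02 and 6.86 in Wild Type hearts (-0.20, SE 0.10, adjusted p = 0.15). The 5 small chaperones that escort hydrophobic proteins between the membranes, Timm8a1, Timm8b, Timm9, Timm10 and Timm13, ranged from -0.46 to -0.07, none of them called. Timm8b was the lowest and most scattered, with 80.8, 61.9, 50.1 and 79.3 in Mutant hearts and 92.0, 86.8 and 96.3 in Wild Type hearts (-0.46, SE 0.19, adjusted p = 0.085). Timm8b, Timm13 and Timm22 did not overlap between the groups although they missed the threshold, and without Mutant_175 Timm8b was called (-0.55).

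All 3 matrix chaperones fell (median -0.77). Hspd1, the barrel of the mitochondrial chaperonin (chromosome 1, 55134829 to 55134888, mm9), had relative signals of 39.9, 29.3, 35.1 and 36.8 in Mutant hearts, against 92.6, 93.7 and 100.5 in Wild Type hearts. Its fall of 2.72-fold (-1.45, SE 0.13, adjusted p = 0.00022) was the largest of the 40 members under the main setting, and a second probe gave -1.22. Hspe1, the lid of the barrel (chromosome 1, 55148026 to 55148085), had 59.2, 53.1, 52.4 and 66.3 in Mutant hearts and 91.8, 96.9 and 106 in Wild Type hearts (-0.77, SE 0.13, adjusted p = 0.0027), with 2 further probes at -0.84 and -0.74. Hspa9, the motor that pulls preproteins through the channel, had 54.2, 37.0, 36.6 and 42.4 in Mutant hearts and 63.1, 62.2 and 68.9 in Wild Type hearts (-0.62, SE 0.16, adjusted p = 0.018). Mutant_175 was the nearest to Wild Type for Hspa9 and Hspd1 and Mutant_188 for Hspe1, and no array overlapped in any of the 3.

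Hspd1 and Hspe1 are neighbours on chromosome 1 that are read in opposite directions. One of the RefSeq windows of Hspd1 and that of Hspe1 share 285 bases (chr1:55087898-55088182, GRCm38.p6) on opposite strands, so a single stretch of DNA is printed for both. The shared stretch of the Hspe1 window (chr1:55087898-55088197, plus strand) holds the heat shock element core TTCNNGAA at 2 places and the ETS core on both strands, the second element core overlapping the ETS cores, with all matches in capitals. The element core was added after these letters had been seen. It occurs in 11 of the 35 members with a window, 6 of the 21 that fell and 5 of the 14 not called, against 8.52% of promoters. Another Hspd1 window carries an NRF1 core instead.
Hspe1: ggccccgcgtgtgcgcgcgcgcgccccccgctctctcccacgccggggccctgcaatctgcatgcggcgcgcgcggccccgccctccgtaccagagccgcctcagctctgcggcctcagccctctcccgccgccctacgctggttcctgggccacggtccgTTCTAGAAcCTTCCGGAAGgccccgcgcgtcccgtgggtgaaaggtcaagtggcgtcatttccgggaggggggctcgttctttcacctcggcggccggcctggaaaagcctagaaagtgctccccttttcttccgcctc

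Of the 9 proteases and prohibitins 6 fell, with a median of -0.73. The count was 3 without Wild Type_181, 3 without Wild Type_183 and 3 without Wild Type_189, with role medians of -0.72, -0.72 and -0.76. The same fits called 18 of the 40 members lower each time. Of the 22839 genes they called 4469, 4066 and 4156 lower, against 5900 in the main fit. Calls were thus lost over all genes, while the median of the role moved little. The lower count is therefore not read as a trait of this role. Clpp, the peptidase chamber of the matrix protease ClpXP (chromosome 17, 57135532 to 57135592, mm9), had relative signals of 14.2, 13.1, 13.8 and 15.3 in Mutant hearts, against 29.2, 32.6 and 29.9 in Wild Type hearts (-1.12, SE 0.11, adjusted p = 0.00027). Lonp1, the main protease of oxidised matrix proteins (chromosome 17, 56753725 to 56753784), had 39.0, 31.6, 36.3 and 32.8 in Mutant hearts and 67.6, 72.7 and 69.7 in Wild Type hearts (-1.01, SE 0.12, adjusted p = 0.00057). Clpp fell 2.17-fold and Lonp1 2.01-fold, with no overlap between the groups. Phb, one of the 2 prohibitins of the inner membrane ring (chromosome 11, 95541283 to 95541342), had 43.2, 40.6, 50.7 and 48.5 in Mutant hearts and 87.0, 91.5 and 85.4 in Wild Type hearts (-0.95, SE 0.12, adjusted p = 0.00083).

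Afg3l2 and Spg7 form the AAA protease that faces the matrix. Afg3l2 had relative signals of 13.7, 9.84, 8.16 and 8.23 in Mutant hearts, against 16.5, 16.5 and 15.7 in Wild Type hearts (-0.73, SE 0.19, adjusted p = 0.019), with Mutant_175 apart from the other Mutant arrays. Spg7 had 69.5, 59.9, 66.1 and 60.8 in Mutant hearts and 83.9, 84.7 and 82.1 in Wild Type hearts (-0.39, SE 0.11, adjusted p = 0.022). The Spg7 call held in 5 of the 16 settings, and its other probe gave -0.26 and was not called. Clpx, the unfoldase that feeds Clpp, had the largest SE of the 40 members, with values of 13.0, 6.43, 4.44 and 6.41 in Mutant hearts and 15.1, 15.4 and 15.8 in Wild Type hearts. Its difference of -1.14 had an SE of 0.33 (adjusted p = 0.026) and lay between -1.44 and -0.93 when single arrays were left out. A second Clpx probe gave 1.96, 0.81, 0.82 and 0.94 in Mutant hearts and 2.18, 2.17 and 2.12 in Wild Type hearts, with Mutant_175 again near the Wild Type arrays.

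The other prohibitin Phb2 differed by -0.36 (SE 0.16, adjusted p = 0.11), Yme1l1, the AAA protease that faces the intermembrane space, by -0.27 (SE 0.12, adjusted p = 0.11) and Htra2, a soluble protease of that space, by -0.26 (SE 0.14, adjusted p = 0.17). Yme1l1 and Htra2 did not overlap between the groups, and Phb2 overlapped through Mutant_175 alone (27.4, 18.7, 19.0 and 19.4 in Mutant hearts against 25.4, 26.5 and 28.3 in Wild Type hearts). Without Mutant_175, Phb2 was called at -0.49 and Yme1l1 at -0.34.

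**Figure D2:**
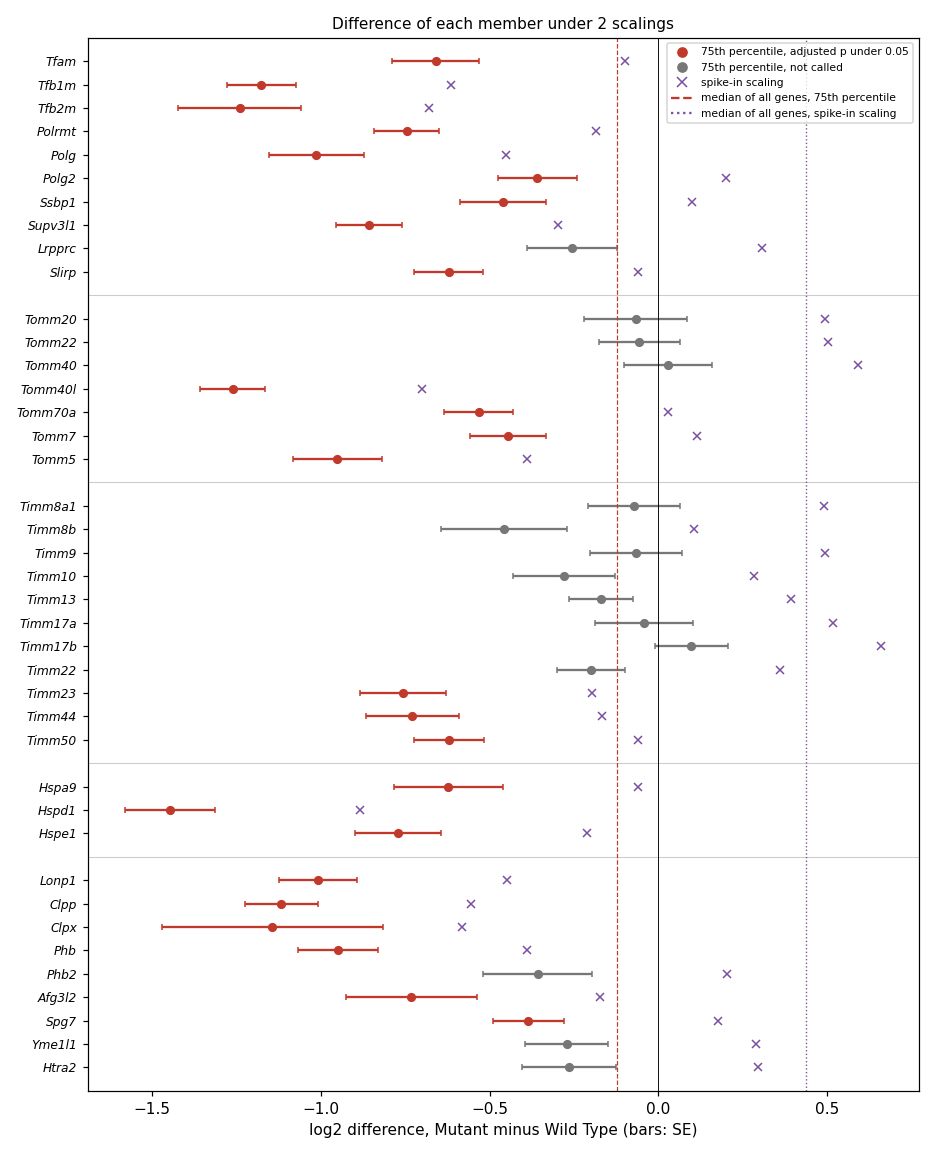
Difference between Mutant and Wild Type hearts for each member (log2, limma, bars are 1 SE) relative to the 75th percentile, red where the adjusted p was under 0.05 and grey otherwise. Crosses give the same gene relative to spike-in RNA. Vertical lines mark the medians of all genes, at -0.12 for the 75th percentile and 0.44 for spike-in RNA. The 25 red points lie between -1.45 and -0.36, and each cross lies to the right of its point by the same amount.

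The Mutant arrays were unequal. Relative to the Wild Type means, the median of the 40 members was -0.38 in Mutant_175, -0.64 in Mutant_182, -0.61 in Mutant_187 and -0.49 in Mutant_188, while the median of all genes was -0.10, -0.15, -0.17 and -0.09. Mutant_175 was the highest Mutant array for 19 of the 40 members and the lowest for 7, and Mutant_182 was the highest for 1 and the lowest for 19. Mutant_175 also had the lowest Smarca4 signal of the 4. Without Mutant_175, 28 members were called lower, and without Mutant_182, 21 were. The share of all genes called in the same fits is not set beside these counts. The change is therefore not read as one of the members.

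Genes known as partners or paralogues were then compared within each array, as the log2 ratio of one to the other. These 9 pairs were chosen with the values already seen. The exact two-sided permutation test over the 35 splits of the arrays cannot give a p under 0.029, and after adjustment over the 9 pairs none passed 0.05. With that floor a pair could not pass the adjustment on its own, so this outcome decides nothing. Of the ratios, 4 did not overlap between the groups. For pairs picked after the values were seen, this is a description and not support. Tomm40l relative to Tomm40 was lower in Mutant hearts by 1.29 (log2; exact p = 0.029, adjusted 0.13), at -1.24, -1.30, -1.51 and -1.12 in the Mutant arrays and within 0.02 of 0 in the Wild Type arrays. Hspd1 relative to Hspe1 differed by -0.67 (exact p = 0.029, adjusted 0.13), for genes whose promoter windows overlap. Polg relative to Polg2 differed by -0.65 and Phb relative to Phb2 by -0.59 (exact p = 0.057, adjusted 0.13 for each).

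The other 5 ratios overlapped between the groups. Slirp relative to Lrpprc differed by -0.37 (exact p = 0.086, adjusted 0.15) and Spg7 relative to Afg3l2 by 0.35 (exact p = 0.17, adjusted 0.26). The remaining ratios were 0.14 for Timm17b relative to Timm17a, 0.06 for Tfb1m relative to Tfb2m and 0.03 for Clpp relative to Clpx. The last of these had a wide spread, at -0.86, 0.04, 0.65 and 0.27 in the Mutant arrays and -0.04, 0.10 and -0.06 in the Wild Type arrays, so the near-zero mean does not show that the pair moved together.

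**Figure D3:**
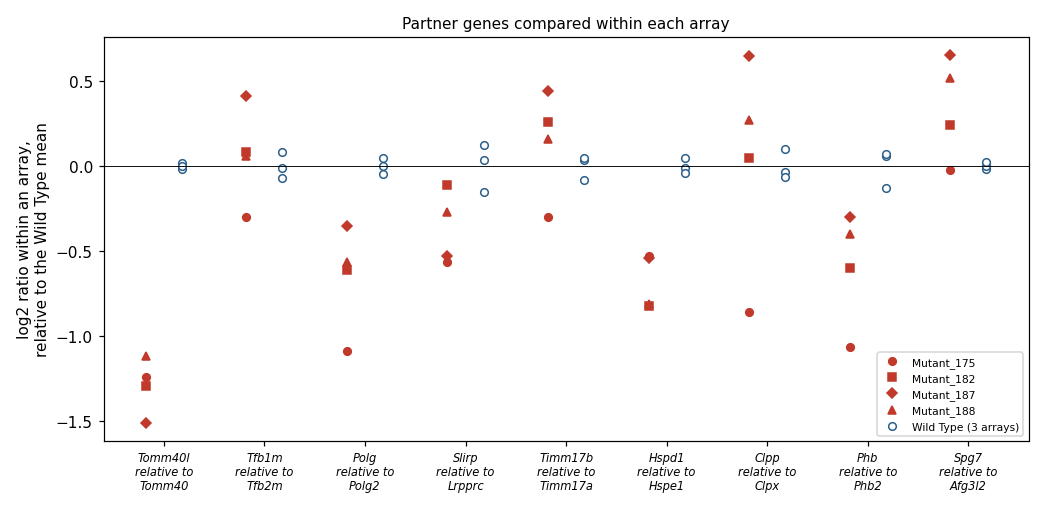
Ratio of partner genes within each array (log2, relative to the mean of the 3 Wild Type arrays), with red symbols for the 4 Mutant arrays left of open blue circles for the 3 Wild Type arrays of each pair. Tomm40l relative to Tomm40 lies at -1.51 to -1.12 in Mutant hearts, while Clpp relative to Clpx ranges from -0.86 to 0.65.

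Transcripts of the mitochondrial DNA itself were measured for 11 of the 15 names sought, and 10 fell while 0 rose (median -0.61). Of all genes, 25.8% fell and 16.4% rose. Whether the values of these transcripts follow from those of the nuclear genes above was not tested. COX1, the catalytic subunit of cytochrome oxidase, had relative signals of 356, 427, 362 and 505 in Mutant hearts, against 731, 629 and 709 in Wild Type hearts (-0.75, SE 0.15, adjusted p = 0.0069). ND2 and ND3, subunits of complex I, differed by -0.61 and -0.63 (adjusted p = 0.0089 and 0.0069), the file placing the ND3 probe on chromosome 1 (24619613 to 24619672, mm9). Without overlap in any of the 10, Mutant_187 or Mutant_182 was the lowest array in each but COX1, where Mutant_175 was. ND6, the one protein read from the other strand, had 0.59, 0.50, 0.46 and 0.71 in Mutant hearts and 0.62, 0.76 and 0.67 in Wild Type hearts (-0.29, SE 0.17, adjusted p = 0.21). Its groups overlapped through Mutant_188.

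The number of these transcripts called lower changed with the scaling. It was 1 under quantile normalization, 3 under normexp with quantile normalization and 0 under spike-in scaling, where 20, 22 and 5 of the 40 members were called lower. With the 75th percentile taken over probes well above background on every array it was 10, beside 22 members. Of the 22839 genes tested, 5198 fell under quantile normalization, 4706 with that percentile and 1690 under spike-in scaling. The share of all genes under normexp is not set beside its counts. Under the main scaling without Wild Type_183, the number of these transcripts called lower was 5. Their brightest probe stood at 50.8% to 60.8% of the highest signal the scanner could record in Mutant hearts and 50.5% to 65.8% in Wild Type hearts, while the brightest member stood at 8.91% to 10.8% and 7.98% to 9.92%. Probes of COX1 (chrM:6203-6262, plus strand) and ND6 (chrM:13552-13611, minus strand), given as the file places them on mm9, are printed because they read opposite strands of the same molecule.
COX1: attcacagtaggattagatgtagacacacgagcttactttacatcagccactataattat
ND6: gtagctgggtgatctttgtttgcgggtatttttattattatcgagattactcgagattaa

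**Figure D4:**
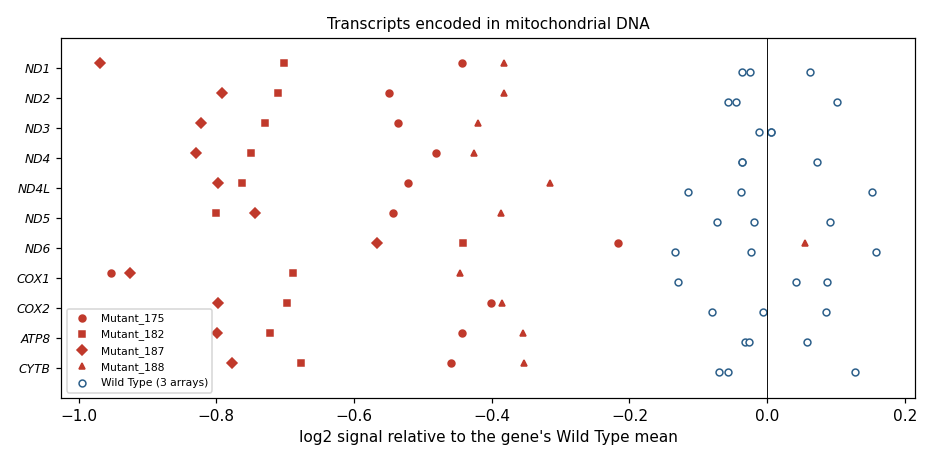
Signal of 11 transcripts encoded in mitochondrial DNA on each array (log2, relative to the mean of the 3 Wild Type arrays), with red symbols for the 4 Mutant arrays and open blue circles for the 3 Wild Type arrays. All Mutant symbols lie left of the Wild Type circles except for ND6, where Mutant_188 lies among them.

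Other nuclear genes of the same pathways, 83 in all, fell in 57 cases and rose in 4 (median -0.62). Of all genes, 25.8% fell and 16.4% rose. Relative to spike-in RNA, 15 of these 83 fell and 7 rose (median -0.06), where 7.4% and 36.4% of all genes did. Under the main scaling, without Wild Type_181, Wild Type_183 or Wild Type_189 in turn, 2 of the 83 rose each time. Among 16 further genes of mitochondrial DNA maintenance and transcription 8 fell and 1 rose (median -0.53). Mgme1, a nuclease that trims replication intermediates, had a difference of -1.94, Dguok, which supplies purine nucleotides for mitochondrial DNA, one of -1.62, and Peo1, the replicative helicase, one of -1.23 (adjusted p = 0.00041, 0.00023 and 0.00023). A second Dguok probe at -0.47 was not called. Dna2, a nuclease shared with the nucleus, rose by 0.67 (adjusted p = 0.042). Of 23 RNA processing and translation factors 20 fell and 0 rose (median -0.63), and those of smallest p were Tufm, the elongation factor, at -1.24, Hsd17b10, a subunit of the enzyme that trims transfer RNA, at -1.10 and Mtrf1l, a release factor, at -1.39.

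Of 22 other import genes 17 fell and 1 rose (median -0.68). Mipep and Immp2l, peptidases that trim imported proteins, differed by -1.75 and -1.61 (adjusted p = 9.7e-05 and 0.00014), and Timm21, which links TIM23 to TOM, by -1.28 (adjusted p = 0.00027). Pmpcb, in this count, was fitted without Wild Type_181, where its spot was an outlier. Grpel2, a nucleotide exchange factor of the motor, rose by 0.84 (adjusted p = 0.0010). Among 14 other chaperones, proteases and cristae scaffold genes 10 fell and 1 rose (median -0.80), with Lace1 at -1.37, Dnaja3, a co-chaperone of the motor, at -1.25 and Lactb at -0.95, whose other probe gave -0.10 and was not called. The peptidase Nln rose by 1.35 (adjusted p = 0.0075), with 3.90, 1.97, 1.65 and 1.95 in Mutant hearts and 0.87, 0.87 and 0.89 in Wild Type hearts.

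Of 8 regulators of these genes 2 fell and 1 rose, near the 25.8% and 16.4% of all genes, and with the mean over each gene's probes 0 passed the test in either direction. Esrra, a nuclear receptor of the energy programme, fell by 0.97 (adjusted p = 0.00036) and Gabpa, the DNA-binding subunit of GABP, by 0.75 (adjusted p = 0.022) by their brightest probes. The other Esrra probe gave -0.03 and the other Gabpa probes 0.15 and 0.21, none of them called. Nrf1, whose motif core was searched above, had relative signals of 2.39, 2.21, 2.67 and 2.12 in Mutant hearts, against 1.72, 1.77 and 1.65 in Wild Type hearts, a rise of 0.45 (adjusted p = 0.019) that its other probes, at 0.10 and 0.11 and not called, did not show. Among the other 5 was Ppargc1a at -0.36 (adjusted p = 0.17). The list's median was -0.04, and -0.22 with the mean over probes.

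**Figure D5:**
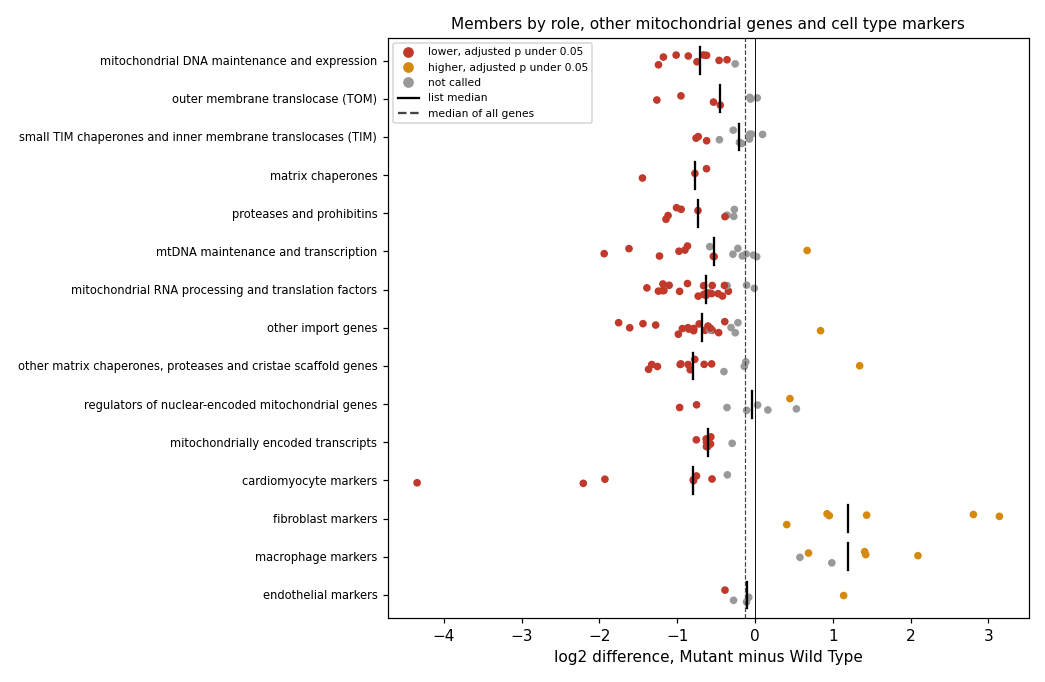
Difference between Mutant and Wild Type hearts (log2) for the members by role, for the other genes of the same pathways and for cell type markers. Red points fell and orange points rose at an adjusted p under 0.05, grey points were not called, black bars are list medians and the dashed line is the median of all genes at -0.12. Medians of the 5 roles run from -0.77 in the matrix chaperones to -0.20 in the TIM group, beside -0.79 in cardiomyocyte markers and 1.20 in fibroblast markers.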

How the data were processed

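Messenger RNA was measured on 7 one-colour arrays on 1 slide with 1 scan, so no batch was fitted. The files' position codes put the Mutant arrays in one row of the slide and the Wild Type arrays in the other, so row and genotype cannot be told apart. Per the labels' protocols, total RNA was labelled with Cy3 with spike-in RNA added. Per the file headers, Agilent Feature Extraction 10.7.3.1 gave each spot a background-corrected intensity, the processed signal, with flags for outlying spots and for spots well above background. Probe positions are those of the files, on mm9. A value table that the authors deposited holds the same intensity, unscaled: 99.6% of its cells lay within 0.01 (log2) of the scanner value, with column medians of 65, 82.6, 80.3 and 60.8 in the Mutant arrays and 47.2, 45.6 and 50.4 in the Wild Type arrays.

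Of 59305 non-control spots per array, 58.1% to 63.6% were well above background, 0 were saturated and 82 to 146 outliers were dropped. Spots of a probe were averaged and log2 values taken relative to the array's 75th percentile. Probes passing the background flag on 3 or more arrays numbered 34481, and the brightest of these stood for each gene as the files name it. limma 3.58.1 (R 4.3.3, with version 1.17.8 of data.table) was fitted to 22839 genes with Benjamini-Hochberg adjustment. On simulated data with 200 of 22809 genes changed, it recovered 2.73% of differences of 0.5 (log2), 44.8% of 1 and 79.4% of 2. Of the calls there, 6.39% were on unchanged genes. Many more genes were called in the real data, so these rates need not hold here. In the real data Polg2 at -0.36 and Spg7 at -0.39 were called, while Timm8b at -0.46 was not. A member that was not called is therefore not shown to be unchanged. Replicates share no numbers between groups. Precision is limited by having 7 arrays.

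The members and lists were chosen with earlier results of these data known. Array values are given for the targeted genes and for the 5 members of smallest p in each role, and up to 3 genes are named per other list. The markers, opposite calls and members described beyond this were named after their values were seen. Probe positions within exons were not determined, and proteins were not used here. Some lymphocyte markers are not reported here.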

Additional observations from a re-analysis of the deposited data

Results flagged for a closer look

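Phb2 was the 1 member of 40 with an outlying Mutant array by Dixon's test. Its relative signal was 27.4 in Mutant_175 and 18.7, 19.0 and 19.4 in the other Mutant hearts, against 25.4, 26.5 and 28.3 in Wild Type hearts. On the log2 scale the gap to the nearest value was 0.900 of the group's range, above Dixon's critical value for 4 samples. Chance flags about 1 in 20 groups of this size. The Wild Type group, with 3 arrays, was not tested in this way.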

How the results depend on the processing

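No paired analysis was possible because the groups share no replicate numbers. The 16 alternatives were other scalings and backgrounds, the authors' value table, other filters and probe rules, a trended robust prior and leaving out each array. Of the 25 members that fell, 5 did so under all 16 (Clpp, Hspd1, Tfb1m, Tfb2m and Tomm40l) and 17 under all but spike-in scaling. Calls were lost most often for Polg2 and Spg7 (kept in 5 of 16 each), Ssbp1 (8), Tomm7 and Clpx (10 each) and Afg3l2 and Hspa9 (11 each). Under spike-in scaling 5 members were lower and 4 higher, their median was -0.016, and the lower calls by role were 2 in mitochondrial DNA maintenance and expression, 1 in TOM, 0 in TIM, 1 among matrix chaperones and 1 among proteases and prohibitins. Other genes of the pathway gave 15 lower and 7 higher, and mitochondrially encoded transcripts 0. Of 18 signs that turned, those of values called under either scaling were Polg2 (0.20), Ssbp1 (0.10), Tomm70a (0.029), Tomm7 (0.12), Spg7 (0.18), Timm8a1 (0.49), Timm9 (0.50) and Timm17a (0.52). The cause is the scaling's construction, which adds 0.56 to each difference of a gene measured on all 7 arrays. The members' median was -0.40 with quantile normalization and with normexp, which also called 1 member higher, and mitochondrially encoded lower calls were 1 and 3. The mean over probes turned Tomm40 to -0.46. With single arrays left out, members called lower ranged from 18 to 28 and higher stayed at 0, other genes from 40 to 60 lower and from 2 to 5 higher, proteases and prohibitins from 3 to 8, and mitochondrially encoded transcripts from 5 to 10. The members' median then ranged from -0.59 to -0.53. Shares of all genes called in these fits are not set beside the counts in this paragraph, which are therefore not read against a background here. Having 4 Mutant and 3 Wild Type arrays limits all of these values.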

Other observations

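Probes of the same gene differed in several members. A Tomm40 probe on chromosome 7, at 20306895 to 20306954 of mm9, runs in the orientation opposite to the other 3 and had relative signals of 0.66, 0.45, 0.50 and 0.57 in Mutant hearts, against 2.003, 2.40 and 2.11 in Wild Type hearts. It fell by 2.01 (adjusted p over all probes 0.00012), while the other 3 Tomm40 probes lay between 0.03 and 0.06. Which transcript this probe reads was not tested. A second, much dimmer Slirp probe fell by 1.90, beside -0.62 for the one used. The second Tomm70a probe, also much dimmer than the one used, fell by 1.43, beside -0.53. A second Ssbp1 probe lay lower, at -1.02, beside -0.46. Another, at -1.06, was well above background on 3 arrays only, all of them Wild Type. It passed the filter through the group where it was higher, so its fall is no support. The second Afg3l2 probe gave -0.16 (adjusted p = 0.44), beside -0.73, and of the other Yme1l1 probes one gave 0.52 (adjusted p = 0.32). That Yme1l1 probe was well above background on 4 arrays only. Its relative signals of 0.016 to 0.054 lay near the lowest signals with that flag, 0.024 to 0.038 across arrays. Of the 82 member probes tested, 47 fell, the dim Ssbp1 probe at -1.06 among them, and 0 rose. Several of these are probes of the same gene. The share over all probes was not computed, so the count has no background beside it.

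Further probes placed on mitochondrial DNA carried no name from the lists. In 5 of them, all in the orientation of COX1, the signal fell by 0.55 to 0.63 (adjusted p = 0.0078 to 0.017). Another, at 1155 to 1214 in the orientation of ND6, had relative signals of 3.85, 2.68, 3.36 and 3.97 in Mutant hearts, against 3.91, 5.09 and 3.72 in Wild Type hearts (-0.29, adjusted p = 0.24). Both probes of that orientation were uncalled, and the difference between orientations was not tested.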
